A study of Caenorhabditis elegans with 2 samples.

Results

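The regions described here are the weaker regions of signal of a GFP-tagged ZK185.1 protein that were found in both replicates of one chromatin immunoprecipitation (ChIP-seq) experiment in the nematode Caenorhabditis elegans. They were chosen from the authors' relaxed list on the pooled reads, a list of 30000 regions that is meant to hold background as well as binding. A region qualified if its pooled signal, the authors' peak height, was from 25 to below 40, if it lay on a nuclear chromosome, and if its summit had another summit within 100 bp in the relaxed list of replicate 1 and also in that of replicate 2. Of 3637 regions in this signal range, 1272 met the rule (35%), and the other 2365 are called failing regions below. The range lies under the authors' list of 2053 thresholded peaks, of which 2034 were nuclear and the weakest had a signal of 56.97.

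Whole young adult hermaphrodites of strain OP474 were used, genotype unc-119(tm4063) III; wgIs474, taken 56.25 h after bleaching-derived L1 larvae had been synchronised by starvation. The transgene, carried in all samples, fuses GFP and FLAG to the C-terminus of ZK185.1, and an antibody against GFP was used for the precipitation. There were 2 biological replicates and 1 group, so no condition could be compared with another. Because whole animals of 1 transgenic line were used, a region bound in few cells and a region bound weakly in many cells cannot be told apart, and no untagged strain was analysed here.

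Sequence-specific factors bind DNA mainly near gene starts, in the accessible DNA just upstream of the transcribed part, and the signal of a ChIP-seq region grades from strongly bound sites into background with no natural limit. A long relaxed list is therefore called for each replicate, and a separate later step keeps what ranks alike in both.

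The 6 sequences below are shown because they surround the summits of members that rank high in both libraries. They are the first, by the worse of the ranks in the replicate lists, on chromosomes II to X. Each is 151 bases of the forward strand of WBcel235 (ce11) as held by RefSeq, centred on the pooled summit. Capitals mark the word GAGAGA, the word GTTCGA and the word TGATAA on either strand. GTTCGA is part of the internal promoter of tRNA genes, and TGATAA is the word bound by GATA factors of the worm intestine.

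Upstream of T22D1.3, chrIV:6913136-6913286: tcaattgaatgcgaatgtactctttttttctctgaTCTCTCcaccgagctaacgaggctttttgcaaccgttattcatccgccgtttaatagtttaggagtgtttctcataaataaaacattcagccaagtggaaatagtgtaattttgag
Exon of WBGene00022661, chrIII:7738134-7738284: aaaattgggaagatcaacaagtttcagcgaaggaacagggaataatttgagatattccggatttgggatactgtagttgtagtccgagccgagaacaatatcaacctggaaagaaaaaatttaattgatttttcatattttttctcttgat
Exon of cpl-1, chrV:16593623-16593773: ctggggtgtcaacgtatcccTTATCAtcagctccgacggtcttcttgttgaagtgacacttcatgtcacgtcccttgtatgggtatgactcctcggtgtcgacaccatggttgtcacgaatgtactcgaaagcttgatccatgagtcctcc
tRNA gene WBGene00023081 within ajm-1, chrX:9091028-9091178: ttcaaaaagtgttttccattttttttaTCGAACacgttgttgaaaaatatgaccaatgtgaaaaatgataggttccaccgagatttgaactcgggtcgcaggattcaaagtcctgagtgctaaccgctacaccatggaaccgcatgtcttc
Intergenic, nearest start Y44A6C.1, chrV:20717181-20717331: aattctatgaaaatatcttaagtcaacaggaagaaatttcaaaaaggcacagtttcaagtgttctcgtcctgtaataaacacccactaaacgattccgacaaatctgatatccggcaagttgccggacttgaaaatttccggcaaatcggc
Non-coding RNA gene Y43F4A.6 within Y43F4A.1, chrIII:13224485-13224635: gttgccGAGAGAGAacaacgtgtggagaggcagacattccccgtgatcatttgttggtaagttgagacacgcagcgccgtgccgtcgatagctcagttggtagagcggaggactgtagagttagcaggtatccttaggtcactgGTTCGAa

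The first sequence lies 327 bp upstream of the start of T22D1.3 and holds TCTCTC, the reverse complement of GAGAGA. The cpl-1 sequence lies in a coding exon and holds TTATCA, the reverse complement of TGATAA. That from ajm-1 has its summit in a tRNA gene and holds TCGAAC, the reverse complement of GTTCGA, but outside that gene. The sequence inside Y43F4A.1 holds GAGAGA in overlapping copies near one end and GTTCGA near the other, and those from WBGene00022661 and next to Y44A6C.1 hold none of the 3 words. These are matches of letters, and whether any of them is a working site was not tested.

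The best-supported members lay in all kinds of places. Of the 24 regions with the best worse rank, 8 were in start windows of protein-coding genes (1000 bp upstream to 200 bp downstream of the annotated start), 6 were intergenic, 5 were in coding exons, 2 in introns, 2 in RNA genes and 1 in an untranslated exon. T22D1.3 had a pooled signal of 39.6, with 21.97 in replicate 1 and 34.3 in replicate 2. The region upstream of kin-29, a kinase of the salt-inducible family, had a pooled signal of 36.5, with 16.6 in replicate 1 and 25.1 in replicate 2. At fars-3, which encodes a phenylalanyl-tRNA synthetase subunit, the summit lay 80 bp upstream of the start and the signals were 20.3 and 23.1 in replicates 1 and 2. In all 3 regions replicate 2 had the higher value. The lists differ in scale, and by rank fars-3 stood better in replicate 1 (2200 against 3056). T22D1.3 and kin-29 stood better in replicate 2 by rank too. At gcst-1, a gene of the glycine cleavage system, the summit lay 76 bp upstream, and the signals were 15.8 in replicate 1 and 25.004 in replicate 2. At F55H12.2 the summit lay 123 bp upstream, and the signals were 15.8 in replicate 1 and 36.9 in replicate 2. The start-window region of cisd-1, named for its iron-sulfur CDGSH domain, lay 480 bp upstream of that start and inside the gene mfn-1, with 15.2 and 23.0. Those of R119.3 and acer-1 lay 638 and 996 bp upstream, the second close to the edge of the window, and each gave values between 20 and 23 in both replicates.

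Members outside start windows had replicate values in the same range. In the coding exon of cpl-1, which encodes a cathepsin L protease, replicate 1 gave 25.3 and replicate 2 gave 29.4. In that of lys-8, a lysozyme gene, the values were 16.3 and 23.6 and the summit lay 786 bp past the start. In the intron of catp-7, a P-type ATPase gene, the values were 17.3 and 28.6, and the nearest thresholded summit was 59416 bp away. The region near mut-16, a gene of small RNA amplification, lay 5707 bp from that start between genes, and gave 24.5 in replicate 1 and 21.9 in replicate 2. The region in the exon of dct-15 gave 24.5 and 21.9, and it was 67505 bp from a thresholded summit. In these last 2 regions replicate 1 had the higher value, the reverse of the first 3 in this paragraph. By rank the cpl-1 region also stood better in replicate 1 (1563 against 2128).

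Several of the best-ranked members stood beside stronger peaks. The first, in an intron of let-526 on chromosome I, which encodes a chromatin remodelling subunit, lay 214 bp from a thresholded summit, and the exon of WBGene00022661 lay 202 bp from one. That exon region had the highest replicate 2 signal of all members, 69.98, against 20.9 in replicate 1 and 38.1 in the pooled list. The region of cpl-1 was 214 bp from a thresholded summit, that of the tRNA gene in ajm-1 252 bp, that near unc-115, an actin-binding protein gene, 201 bp, and that of F55H12.2 327 bp. In all, 6 of these 24 regions had a thresholded summit within 500 bp, but only 39 of the 1272 members did (3.07%) and 82 of the failing regions (3.47%). The part of neighbouring peaks in the values of these 6 regions was not tested.

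The remaining named regions were those of Y44A6C.1 (20.01 in replicate 1 and 29.1 in replicate 2), of Y43F4A.6 (18.9 and 33.7), past the end of the prolyl isomerase gene fkb-2 (19.5 and 26.2), in an untranslated exon of ncl-1 (16.8 and 36.0), in a coding exon of C17C3.1 (19.7 and 22.02), near dmd-7 (21.8 and 21.6) and near C49F8.15 (23.4 and 20.9). The last 2 were the only ones of these 7 with the higher value in replicate 1. By rank the regions past fkb-2 and in C17C3.1 also stood better in replicate 1.

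The members' signals in each replicate were as follows. The signal in replicate 1 ran from 2.34 to 42.4 with a median of 8.96 and quartiles of 5.42 and 13.2. In replicate 2 it ran from 4.13 to 69.98 with a median of 12.5 and quartiles of 8.48 and 17.6. The medians of the whole lists were 5.58 and 7.96, so the lists differ in scale, and 335 members in replicate 1 and 279 in replicate 2 lay below their list's median. By rank the libraries were level: 616 members ranked better in replicate 1 and 656 in replicate 2, with median ranks of 7974.5 and 7735.5. Only 2 members were among the strongest 2053 regions of both replicate lists, while 49 were so in replicate 1 alone, 28 in replicate 2 alone and 1193 in neither. Over the 1272 regions the replicate signals had a Spearman correlation of -0.14. The pooled range bounds both replicate values together, so this is a description of regions chosen by that range and no measure of reproducibility.

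**Figure D1:**
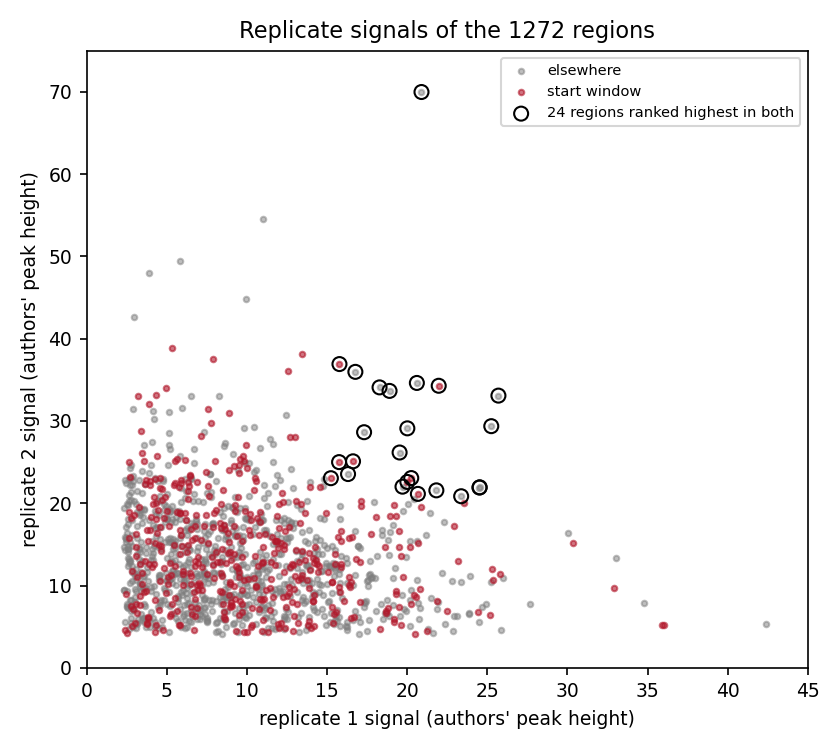
Signal of the 1272 regions in replicate 1 (x axis) and replicate 2 (y axis), in the authors' peak height; each point is a region, red where its summit lies in a coding start window, and circles mark the 24 with the best worse rank. The cloud has no rising trend (Spearman correlation -0.14), and start-window regions are spread through it.

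The limits of the rule cut through gradual distributions. Just inside the lower signal limit were regions in cdka-1 (25.01), at dos-3 (25.02) and in C27B7.7 (25.02), and just outside it regions at VW02B12L.2 (24.998), near K07D4.2 (24.99) and near svh-5 (24.99). At the upper limit the regions of lir-2 (39.96), emb-8 (39.95) and aak-1 (39.95) were inside and those of C06A6.2 (40.01), zer-1 (40.01) and F38B7.2 (40.03) were outside. At the distance limit the farther replicate summit lay 100 bp away for T22D1.3, catp-7 and ergi-3. It lay 101 bp away for regions near F09E10.1, in an intron of kcc-2 and near Y105C5A.1272, which fail. The farther replicate summit lay within 25 bp for 319 members, over 25 to 50 bp for 347, over 50 to 75 bp for 294 and over 75 to 100 bp for 312, and 251 failing regions followed over 100 to 125 bp. There was no gap in these distances at 100 bp, and the failing regions included 872 with a replicate summit over 500 bp away.

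The lists cover little of the genome. A share of 6.01% of nuclear bases lay within 100 bp of a summit of replicate 1, 6.01% within that of a summit of replicate 2, and 1.27% within that of both. Of the regions in range, 2046 (56.3%) had a summit in replicate 1 and 2502 (68.8%) in replicate 2. Since the pooled list was called on the reads of both replicates, a region of it is not independent of either list. Replicate 1 alone held 774 of the failing regions, replicate 2 alone held 1230, and 361 had a summit within 100 bp in neither (9.93% of the range).

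Recovery increased with the pooled signal through the range and past both of its ends. It was 7.42% at a pooled signal of 10 to 15, 23.0% at 20 to 25, then 29.6%, 37.9% and 43.6% in the 3 steps of the range, 53.3% at 40 to 57, and 92.0% at 100 and above. Members accordingly had a higher median pooled signal than failing regions, 31.0 against 29.6. The signal chose the regions, so this is a description.

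Members lay in start windows of protein-coding genes slightly more often than failing regions did. Of 1272 members 423 did so (33.3%, exact 95% interval 30.7 to 35.9), against 668 of 2365 failing regions (28.2%, 26.4 to 30.1). The odds ratio was 1.27 (1.09 to 1.47; Fisher's exact test, two-sided, p = 0.00186, adjusted over the 9 place comparisons p = 0.0167). Both shares stood between that of all nuclear bases (21.5%) and that of thresholded peaks (50.9%). The place was not used to choose regions, but each region counts as 1 observation here, neighbouring regions share DNA and libraries, and the p-values can be too small. The rule also needs nearby summits in both lists. Bases near such summits were more frequent inside start windows (2.08%) than outside them (1.04%). The part of this in the odds ratio was not tested.

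The call did not hold under every setting. It was lost by Fisher's exact test when summits within 200 bp counted (odds ratio 1.14, adjusted p = 0.319), when overlapping intervals counted (1.17, adjusted p = 0.174), when replicate 1 alone was required (1.11, adjusted p = 0.691) and when chromosome X was left out (1.21, adjusted p = 0.0651). Within the steps of signal the shares for members and failing regions were 30.1% and 28.1% at 25 to 30, 34.4% and 28.8% at 30 to 35, and 37.0% and 27.6% at 35 to 40. None of these 3 steps passed alone by Fisher's exact test (odds ratios 1.10, 1.30 and 1.54), and the ratio stratified over them was 1.25 (Mantel-Haenszel, adjusted p = 0.0228). With the strongest 15000 regions of each replicate list the ratio was 1.46 (Fisher's exact test, adjusted p = 0.000175).

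**Figure D2:**
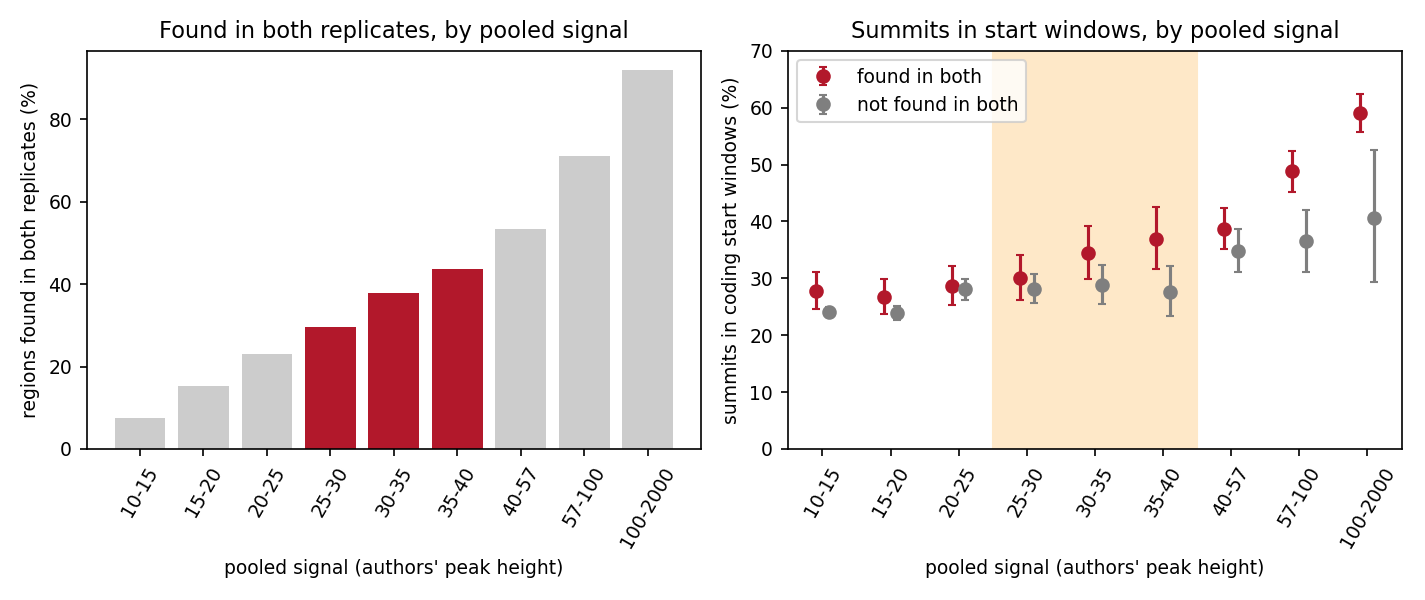
Left, the share of pooled regions found in both replicates by step of pooled signal, with the 3 steps of the range in red. Right, the share of summits in coding start windows for regions found in both replicates (red) and not found in both (grey) with exact 95% intervals; inside the shaded range the red shares go from 30.1% to 37.0% and the grey ones from 28.1% to 27.6%.

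Among failing regions, the share in start windows was 27.1% for those found in replicate 1 only, 29.2% for those in replicate 2 only and 27.4% for those in neither. Among members it went down with the worse rank of the 2 replicates, at 38.7%, 34.6%, 32.7% and 27.04% in successive groups of 318. The share of the last group was below the 28.2% of failing regions. The ranks chose the members, so no test is given for this order. Of the bases in start windows 2.08% and of those outside them 1.04% lay within 100 bp of a summit in both lists.

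Close to a start, members lay upstream of it more often. Of 359 members within 500 bp of a protein-coding start 240 were upstream (66.9%), against 351 of 604 failing regions (58.1%), an odds ratio of 1.45 (1.10 to 1.93; Fisher's exact test, two-sided, adjusted p = 0.0228). The share among thresholded peaks was 85.6%. The median position was -93 bp for members and -57.5 bp for failing regions, where a minus sign means upstream. By the same exact test this call was lost at 200 bp (1.15, adjusted p = 0.704), with overlapping intervals (1.04, adjusted p = 0.887), with replicate 1 alone (1.03, adjusted p = 0.896), in each step of signal, and when regions within 5000 bp of each other were thinned (1.46, adjusted p = 0.0610).

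**Figure D3:**
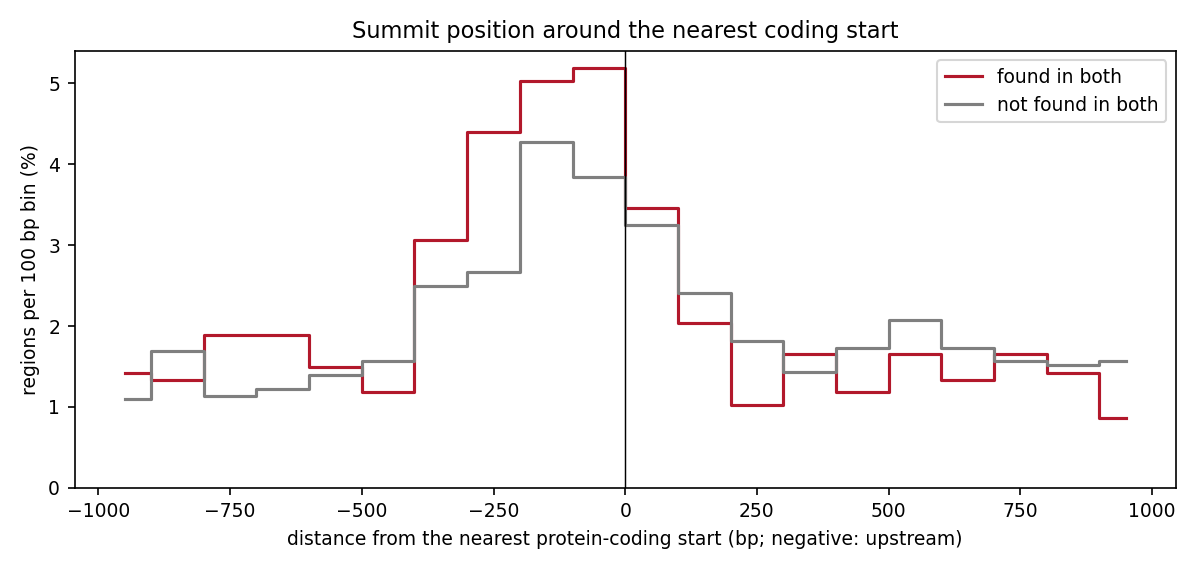
Share of regions per 100 bp of distance from the nearest protein-coding start (negative values are upstream), for the 1272 regions found in both replicates (red) and the 2365 that were not (grey), each as a percentage of its group. The red line is above the grey line in the 400 bp before the start, and the median position within 500 bp is -93 bp against -57.5 bp.

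Coding exons held fewer members than failing regions. They held 209 members (16.4%, 14.4 to 18.6) and 476 failing regions (20.1%, 18.5 to 21.8), an odds ratio of 0.780 (0.649 to 0.936; Fisher's exact test, two-sided, adjusted p = 0.0228). The failing regions were at the share of coding exons outside start windows among nuclear bases, 19.95%, and thresholded peaks were at 5.56%. By the same exact test the call was lost at 200 bp (0.812, adjusted p = 0.132), with overlapping intervals (0.799, adjusted p = 0.113), with replicate 1 alone (0.901, adjusted p = 0.691) and in each step of signal.

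The other places did not pass the test. Introns held 22.6% of members and 24.5% of failing regions (odds ratio 0.903, 0.765 to 1.06), and intergenic DNA held 18.9% and 17.4% (1.10, 0.920 to 1.32). Untranslated exons held 5.35% and 6.85% (0.768, 0.565 to 1.04), and RNA genes or pseudogenes held 3.46% and 2.88% (1.21, 0.804 to 1.81). The adjusted p-values of these 4, by Fisher's exact test, were 0.326, 0.326, 0.155 and 0.365. Introns stood below their share of nuclear bases in both groups (29.8%), as did intergenic DNA (21.6%) and RNA genes or pseudogenes (4.25%). Untranslated exons stood above theirs in both groups (2.98%).

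**Figure D4:**
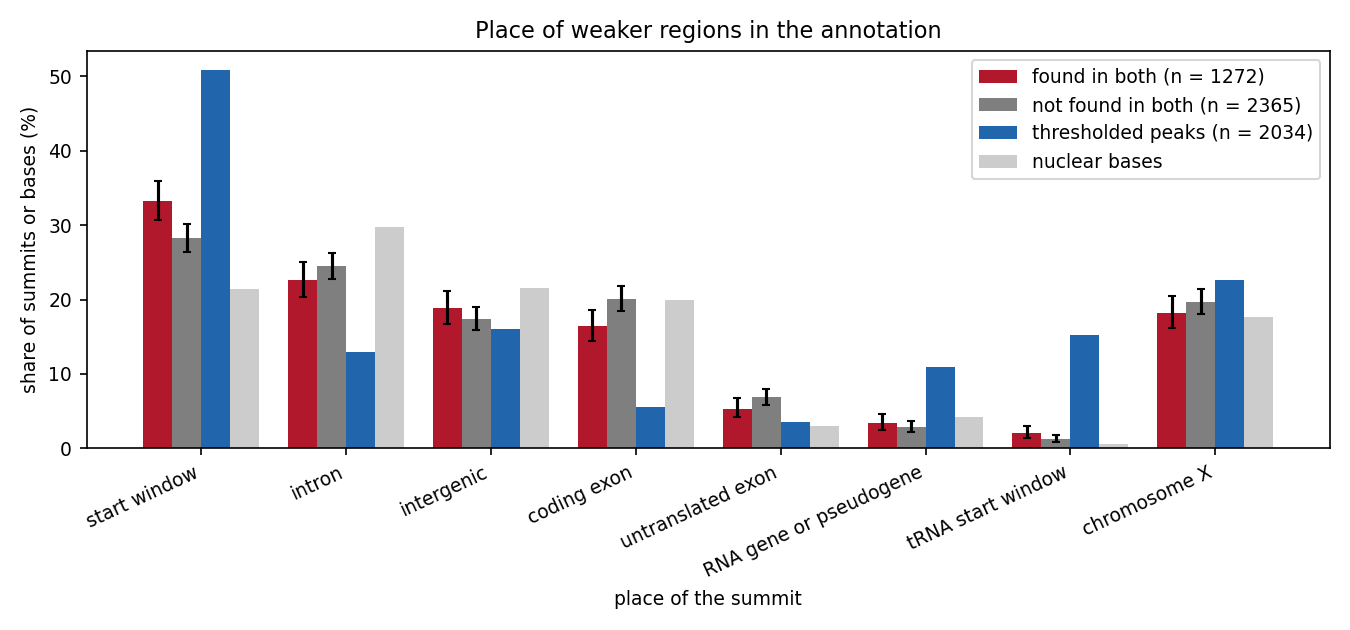
Share of summits by place for regions found in both replicates (red), regions not found in both (grey), thresholded peaks (blue) and nuclear bases (light grey); bars on the first 2 are exact 95% intervals. The first 6 places exclude each other, while tRNA start windows and chromosome X overlap them; in start windows the shares are 33.3% for regions found in both, 28.2% for the others and 50.9% for thresholded peaks, and for coding exons 16.4%, 20.1% and 5.56%.

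tRNA genes, which RNA polymerase III transcribes from promoters inside the gene, marked the thresholded peaks but few of the weaker regions. Summits in their start windows made up 2.12% of members (27 summits), 1.27% of failing regions (30 summits), 15.2% of thresholded peaks and 0.649% of nuclear bases. The odds ratio of members against failing regions was 1.69 (0.961 to 2.95; Fisher's exact test, two-sided, adjusted p = 0.115). By the same exact test it passed with the strongest 15000 regions of each list (2.22, adjusted p = 0.0197) and with a window reaching 2000 bp upstream (1.83, adjusted p = 0.0413), and it was below 1 with overlapping intervals (0.953), with replicate 2 alone (0.718) and at a signal of 25 to 30 (0.497). By gene, 33 of 612 tRNA genes had a member in the window (5.39%), 17 of them on chromosome X, and 39 had a failing region (6.37%), where 1.86% and 3% of all 46890 nuclear genes did. Several tRNA genes can share a summit, and 12 of the 27 summits were among the 318 best-ranked members.

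The recovery was similar on all chromosomes. The share of regions in range that were found in both replicates was 36.9% on I, 35.8% on II, 33.8% on III, 36.5% on IV, 34.2% on V and 33.2% on X. Chromosome X held 18.2% of members and 19.7% of failing regions (odds ratio 0.909, 0.760 to 1.09; Fisher's exact test, two-sided, adjusted p = 0.326), against 17.7% of nuclear bases and 22.6% of thresholded peaks. Members were densest on III, with 14.3 per Mb, and sparsest on V, with 10.4 per Mb. The share in start windows was higher in members than in failing regions on 6 of 6 chromosomes, by most on X (31.9% against 23.4%) and by least on V (35.5% against 33.7%).

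The median distance from a member to a thresholded summit was 8156 bp, and the shortest was 199 bp. Another member lay within 1000 bp of 86 members (6.76%) and within 5000 bp of 421 (33.1%).

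Start windows of 502 of the 19973 nuclear protein-coding genes held a member (2.51%), and those of 763 held a failing region (3.82%). A thresholded summit was also present in the window of 29 of the 502 genes (5.78%) and of 59 of the 763 (7.73%), where 6.77% of all protein-coding genes have one. Among the 18621 genes without a thresholded summit the shares were 2.54% for members and 3.78% for failing regions. A member and a failing region were both present at 25 genes, which is 4.98% of the genes with a member and 3.28% of those with a failing region, beside the 3.82% and 2.51% of all protein-coding genes. A summit that served genes on opposite strands made up 16.8% of members in start windows (71 of 423), 14.7% of such failing regions and 30.05% of such thresholded peaks.

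Lists of genes for the machinery of protein synthesis had members at shares near or above the 2.51% of all protein-coding genes, on counts of 1 to 3 genes a list. The shares were 2.47% for cytosolic ribosomal proteins, 2.5% for translation factors, 4.29% for mitochondrial ribosomal proteins and 6.45% for aminoacyl-tRNA synthetases. Failing regions had equal or larger shares in the same lists, at 4.94%, 10%, 4.29% and 6.45%, beside 3.82% of all protein-coding genes. Of 81 genes of cytosolic ribosomal proteins 50 had a thresholded summit, 2 had a member and 4 a failing region. The member at rps-7 lay 234 bp upstream with 17.8 in replicate 1 and 16.3 in replicate 2, and that at rps-25 lay 379 bp upstream with 14.5 and 12.4. Both genes lacked a thresholded summit, as did all 5 genes next named. Mitochondrial ribosomal proteins had members at 3 of 70 genes, mrps-34, mrps-18A and mrps-18B, and failing regions also at 3. In the list of aminoacyl-tRNA synthetases, which charge tRNAs, 2 of 31 genes had members, lars-1 and iars-2. Both had signals under 15 in each replicate. This list did not hold fars-3, a synthetase gene with a member described above. The 40 translation factor genes had 1, at eif-1. The 44 genes of oxidative phosphorylation had 20 thresholded summits, 4 failing regions and 0 members.

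The proteasome, which degrades proteins, had the highest share of members among lists of over 30 genes. Members lay at 4 of 33 genes (12.1%) and failing regions at 5 (15.2%), so the failing regions were as frequent. Of all protein-coding genes 2.51% had a member and 3.82% a failing region. At pas-3 the summit was 37 bp upstream with 19.5 in replicate 1 and 16.7 in replicate 2, at rpt-1 it was 130 bp upstream with 6.32 and 22.6, and at pbs-7 it was 98 bp upstream with 3.90 and 32.1. The last 2 rest mainly on replicate 2. Heat shock and DnaJ chaperone genes had members at 3 of 51 (5.88%), hsp-1, dnj-7 and dnj-12, and failing regions at 5 (9.80%). Of the 3 genes, hsp-1 also had a thresholded summit. The CCT chaperonin, which folds actin and tubulin, had 1 of 8 genes with a member, cct-4, and 0 with a failing region. The vacuolar ATPase, a proton pump, had 2 of 21 with a member, vha-3 and vha-20, and 1 with a failing region. Among 40 splicing factors the 1 gene with a member was prp-9, whose region is that of mrps-18B and lies upstream of both genes. Failing regions lay at 5 of these 40 genes (12.5%).

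Genes of cell division and of the germ line, the main dividing tissue of an adult worm, had small counts. Their shares stand beside 2.51% of all protein-coding genes for members and 3.82% for failing regions. Cell cycle and replication genes had 4 of 68 (5.88%), among them cdc-14, cdc-7 and knl-1, and the same number with failing regions. Germline genes had 2 of 67 (2.99%), syp-4 and puf-3, and 5 with failing regions (7.46%). At knl-1, a kinetochore gene, replicate 1 gave 15.4 and replicate 2 gave 5.45, while at syp-4, a gene of the synaptonemal complex, they gave 15.9 and 16.7. Histone genes had 1 of 81 (1.23%), his-59, and 2 with failing regions (2.47%). The 31 genes of major sperm proteins had no member, failing region or thresholded peak, and the 6 vitellogenin genes had 0 members.

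Lists of intestinal, neuronal, cuticle and epidermal genes were picked by gene symbol and not by measured expression. They had shares of members above the 2.51% of all protein-coding genes, on counts of 4 to 8 genes. Failing regions were also above their 3.82% of all protein-coding genes in these lists, except in the epidermis list (0.763%). The intestine list had members at 8 of 112 genes (7.14%), failing regions at 13 (11.6%) and thresholded summits at 7. Its best-ranked genes were acdh-3, the saposin-like gene spp-8 and the peptide transporter pept-1, whose summit lay 81 bp upstream with 12.9 in replicate 1 and 9.61 in replicate 2. The neuron list had 4 of 76 (5.26%), among them the touch channel gene mec-10, egl-3 and mec-8, against 7 with failing regions (9.21%). Cuticle collagens had 5 of 164 (3.05%), where col-159 and col-160 share 1 region and col-74 has its own, against 8 with failing regions (4.88%). The epidermis list had 5 of 131 (3.82%), among them ptr-24, ptr-21 and let-653, against 1 with a failing region. It was 1 of 3 of the 28 protein-coding lists in which members had the larger share, with the CCT chaperonin and the vacuolar ATPase. The list of 36 muscle genes had 0 of all 3 kinds, and genes outside the list were not counted.

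Gene families of regulators and of the environment had shares of members near or below the 2.51% of all protein-coding genes. Failing regions were above their 3.82% in nuclear hormone receptors (4.09%), homeobox genes (4.82%), the zinc finger list (5%) and detoxification enzymes (5.95%). They were below it in chemoreceptors (0.387%), C-type lectins (1.25%), F-box and BTB families (0.971%) and neuropeptides and insulins (2.14%). Members lay at 6 of 269 nuclear hormone receptors (2.23%), with nhr-50, nhr-8 and nhr-28 ranked first. Homeobox genes had 2 of 83 (2.41%), ceh-37 and ceh-79, and the zinc finger list had 0 of 40. Chemoreceptors had 3 of 1293, C-type lectins 3 of 240, F-box and BTB families 3 of 412, neuropeptides and insulins 1 of 140, ins-13, and detoxification enzymes 3 (1.62%), ugt-49, gst-5 and ugt-40. Over the 28 lists, 12 had a share of members above the 2.51% of all protein-coding genes, and 19 had a share of failing regions above 3.82%. These lists were chosen with earlier results of these data known, and the counts are descriptions.

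**Figure D5:**
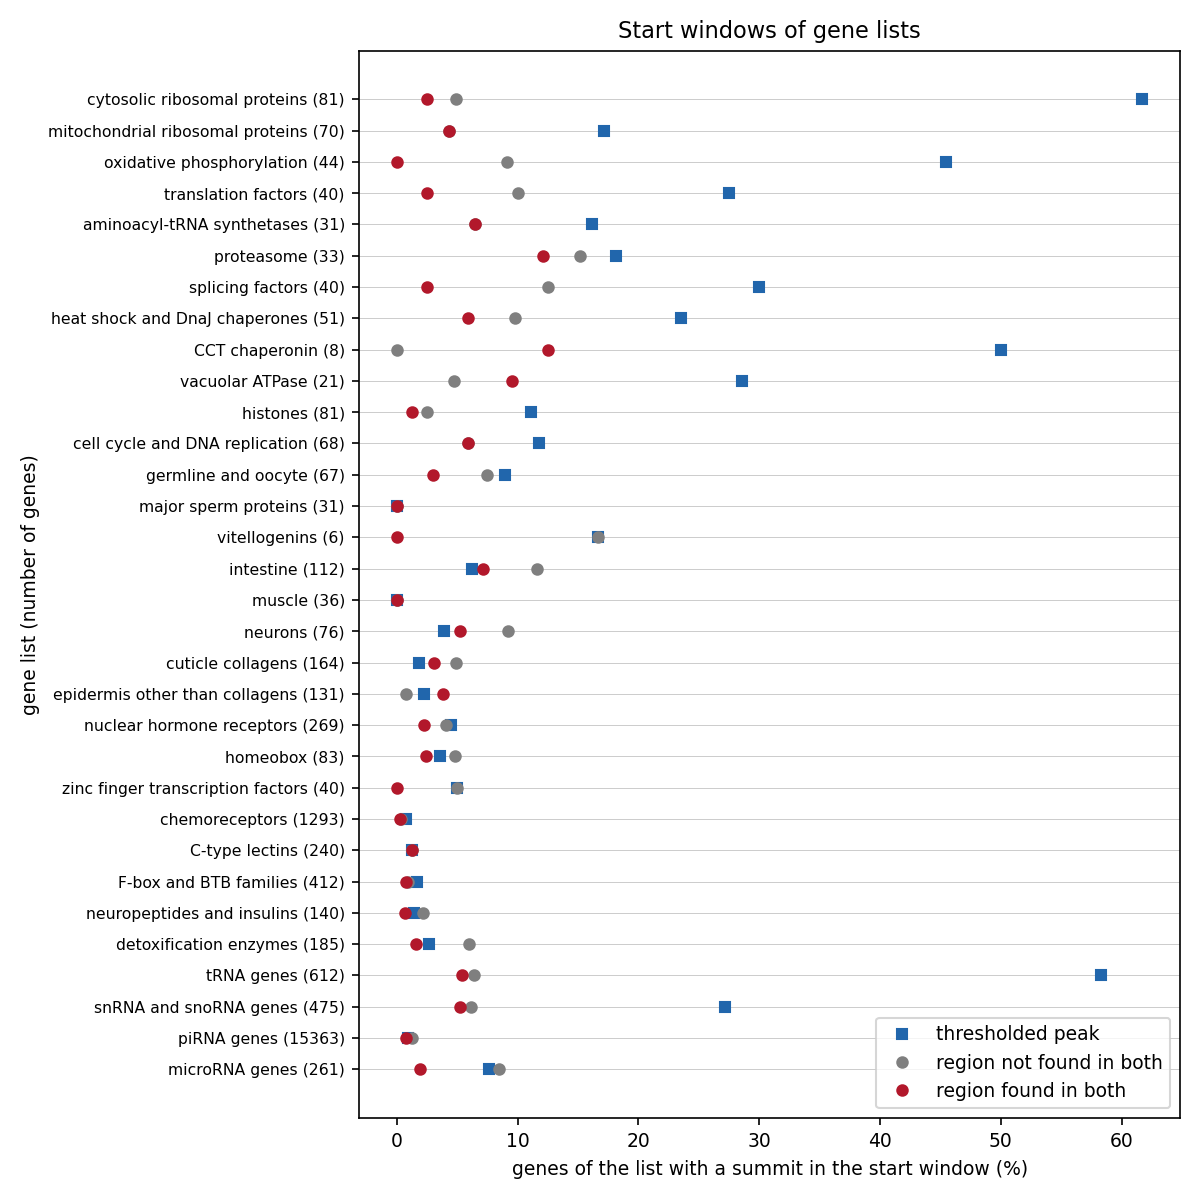
Percentage of the genes of each list with a summit of a region found in both replicates (red), of a region not found in both (grey) or of a thresholded peak (blue squares) in the start window; the number of genes is in parentheses, and a red circle can cover the others. The red circles stay below 13% in every list, while blue squares reach 61.7% for cytosolic ribosomal proteins and 58.3% for tRNA genes.

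RNA genes are set against all 46890 nuclear genes, of which 1.86% had a member and 3% a failing region in the window. Small nuclear and nucleolar RNA genes had 25 of 475 with a member (5.26%) and 29 with a failing region (6.11%), and smy-3 ranked first, with its summit 37 bp upstream and 23.6 in replicate 1 and 20.04 in replicate 2. MicroRNA genes had 5 of 261 (1.92%) against 22 with a failing region (8.43%), and the members were at cel-mir-83 and, in 1 shared region, cel-mir-58b and cel-mir-58c, among others. The piRNA genes, which in this worm crowd in clusters on chromosome IV, had 116 of 15363 (0.755%) through only 45 summits, so neighbouring genes share a region. Failing regions lay at 200 piRNA genes (1.30%), also below the share of all nuclear genes.

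The base composition of members was that of failing regions. Within 50 bp of the summit the median GC content was 38.6% in both groups, with quartiles of 33.7% and 43.6% in both. Windows 300 bp to the side had 34.7% and 35.6%, thresholded peaks had 45.5%, and nuclear DNA had 35.4%. Weaker regions of both kinds thus had more GC than their flanks and less than the thresholded peaks.

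Words of 6 bases were counted on both strands in the 101 bases around the summit. Of 2080 words 1028 were more frequent in members than in failing regions, 3 exceeded them by 3 percentage points or more, and 1 was lower by that much. The widest excess was of AACAAA, present in 19.3% of members, 15.9% of failing windows, 19.3% of the members' own flanks and 17.5% of all 101-base tiles of the nuclear genome. ATGAAA followed with 17.1% against 13.9%, then AAAAGA with 21.3% against 18.2%, AGAAAA with 29.3% against 26.4% and GAATTA with 8.25% against 5.58%. Against their own flanks the members' widest excess was in GAGAGA, a word that overlaps itself and AGAGAC. It was in 13.9% of members, 13.2% of failing windows, 6.84% of the members' flanks, 21.3% of thresholded windows and 5.18% of genome tiles. GTTCGA was in 4.80% of members and 4.57% of failing windows, against 9.24% of thresholded windows and 3.73% of tiles, and TGATAA was in 13.1% and 13.0%, against 8.01% and 9.35%.

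One member lay near the tagged gene itself. ZK185.1 is on chromosome IV from 4548553 to 4552788 (ce11), and the summit, past its end at 4553892, had 39.2 in the pooled list, 16.97 in replicate 1 and 4.17 in replicate 2. Within 5000 bp of the gene there were also 2 failing regions and 0 thresholded summits. Around unc-119, the marker of the transgene, there was none of the 3 kinds.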

How the data were processed

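The authors deposited, per the file manifests, relaxed lists of 30000 regions, 1 per replicate and 1 on pooled reads, made against a control alignment, and a thresholded list derived from them. Each region carries a signal as deposited, a peak height whose scale is not stated. Aligner, peak caller, threshold of the irreproducible discovery rate procedure (IDR, which keeps what ranks alike in both replicates) and read depth, not given in the sources used here, were unknown, so no counting error could be given and signals of different lists were not equated. The replicates are separate biosamples per the labels. Summits were matched on ce11 within 100 bp. Each summit was placed in 1 class, in the order start window, RNA gene or pseudogene, coding exon, untranslated exon, intron, intergenic, with Ensembl release 115 genes (WBcel235, the same assembly as ce11). Members and failing regions were compared with two-sided Fisher's exact tests, Benjamini-Hochberg adjusted over 9 comparisons at 0.05, with conditional odds ratios and exact (Clopper-Pearson) 95% intervals, in SciPy 1.17.1, tested on simulated data. Gene lists were picked by gene symbol, or by annotated gene type for RNA genes, and not by measured expression. Lists, words and base composition were described without a test.

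Named regions are the 24 with the best worse rank over the replicate lists, named by a start within 1000 bp or otherwise by place and nearest gene, up to 3 genes of each of 32 lists in that order, those near ZK185.1 and unc-119, 3 on each side of each limit, and the 5 words with the largest excess. Members and lists were chosen with earlier results of these data known. Alternatives were other matching distances, interval overlap, shorter replicate lists, 1 replicate alone, steps of signal, other windows, chromosomes left out and the ce10 lists. One more, keeping regions over 5000 bp apart, was chosen after seeing the data. WBGene00022661 has no symbol in the annotation used and is named by its identifier.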

Additional observations from a re-analysis of the deposited data

How the results depend on the processing

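Results are odds ratios of members against failing regions, or numbers of members. The number was 1233 without regions within 500 bp of a thresholded summit and 1275 with the ce10 lists. It was 666 at 50 bp, 2074 at 200 bp, 2463 with overlapping intervals, 721 with the strongest 15000 regions, 529, 421 and 322 in the signal steps, 846 with regions over 5000 bp apart, and 2046 to 2502 with 1 replicate left out, since each of these widens or narrows the rule or the range. Start windows kept direction in all 16 alternatives and the call in 9; it was lost at 200 bp (1.14), with overlap (1.17), in the signal steps (1.10, 1.30, 1.54) and without chromosome X (1.21), and leaving out a replicate gave 1.11 to 1.22. The upstream share kept direction in all 13 and the call in 6; it was lost at 200 bp (1.15), with overlap (1.04), in the steps (1.62, 1.27, 1.19) and with regions over 5000 bp apart (1.46), and leaving out a replicate gave 1.03 to 1.63. The coding exon share kept direction in all 12 and the call in 6; it was lost at 200 bp (0.812), with overlap (0.799) and in the steps (0.824, 0.690, 0.876), and leaving out a replicate gave 0.800 to 0.901. The tRNA window share passed with the strongest 15000 regions (2.22) and a 2000 bp window (1.83), and was reversed with overlap (0.953) and at 25 to 30 (0.497), with 0.718 to 2.01 when a replicate was left out. Also reversed, none of them called, were the intergenic share at 50 bp (0.995), with overlap (0.915), with the strongest 15000 (0.906) and at 25 to 30 (0.926), with 0.987 to 1.15 when a replicate was left out; the untranslated exon share at 200 bp (1.02), with overlap (1.34) and at 30 to 35 (1.11), with 0.807 to 1.07 when a replicate was left out; the intron share at 200 bp (1.004) and at 25 to 30 (1.17); the chromosome X share at 30 to 35 (1.03); and the RNA gene share at 35 to 40 (0.792). Each signal step holds fewer regions; the other causes were not tested. Counting identical intervals once changed nothing because none repeat. No paired analysis was possible because there was 1 group. With depth unknown, a summit missing from a replicate list cannot be told apart from one too weak to be listed.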
